A study of Mus musculus with 8 samples.

Results

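A set of 10 genes of glucose breakdown and of the Hif response was examined, made up of Slc2a1, Hk2, Aldoa, Tpi1, Gapdh, Pgk1, Eno1, Pkm, Ldha and Pdk1. They are 10 of the 19493 endogenous genes in the count table, and each was found by matching its symbol to the Ensembl gene identifier of the row. The 10 genes were selected on their counts in these same 8 libraries, WT against Dp1Tyb and library by library, so every difference between genotypes or libraries given for them is a description and carries no test. All 10 passed the filter on low counts, which kept 16470 genes.

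RNA was sequenced from mouse embryonic fibroblasts (MEFs), mixed cultures of connective tissue cells grown from the body wall of E14.5 embryos. WT libraries came from wild-type embryos and Dp1Tyb libraries from littermates carrying Dp(16Lipi-Zbtb21)1TybEmcf, a tandem duplication on chromosome 16 that gives 3 copies instead of 2 of the genes between Lipi and Zbtb21. Each genotype has 4 libraries, labelled with the strain background C57BL/6J.129P2, and per the study's methods the mice had been backcrossed to C57BL/6JNimr. Dp1Tyb models Down syndrome. All cultures had gone through the same passages before being lifted with trypsin, and ERCC spike-in RNAs, a set of artificial transcripts of known amount, were added to a set number of cells before extraction. No gene of the 10 lies in the duplicated region.

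Glycolysis splits glucose into pyruvate in a chain of enzyme steps in the cytoplasm, and lactate dehydrogenase can turn the pyruvate into lactate when it does not enter the mitochondria. Hif1a and Epas1 are oxygen-sensitive transcription factors that pair with Arnt. When oxygen is plentiful, the prolyl hydroxylases Egln1, Egln2 and Egln3 mark them for destruction through Vhl, and when oxygen is short they raise glycolytic enzymes, glucose transporters and Pdk1. Gapdh and Pgk1 are also in wide use as reference genes in fibroblasts and other cells.

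Values are counts-per-million (CPM), scaled in either of 2 ways. Relative scaling (TMM factors over endogenous genes) gives a gene's share of the RNA, and spike-in scaling (the median ratio over the spike-ins) follows RNA per cell. In bulk RNA, fewer cells expressing a gene and less RNA per cell cannot be told apart. Libraries held between 17698900 and 26471758 counts, of which 0.882% to 1.65% were spike-ins. The deepest was Dp1Tyb replicate 1. This library also stood apart in other ways, given here with relative scaling. Its 6 proliferation markers summed to 250.4 CPM against 658 to 1545 CPM in the other 7 libraries. All 6 were lowest in it, and 5 of 6 with spike-in scaling. Of 8 listed skeletal muscle markers 5 were in the table, without Myod1, Myf5 and Ckm. These summed to 6.57 CPM in it, to 40.8 to 55.8 CPM in the other Dp1Tyb libraries and to 12.4 to 42.6 CPM in WT. Of these muscle markers Des and Tnnt3 were lowest in it, with Des at 3.21 CPM against 5.35 to 30.2 CPM, and the other 3 were not. The 9 fibroblast markers summed to 14651 CPM in it, within the range of the others (12762 to 21629 CPM), and none of the 9 was absent from the table. Singly, 2 of the 9 were lowest in it, Thy1 (210 CPM) and Col1a1 (3233 CPM). Another 2 were highest in it, Vim (4537 CPM) and Pdgfrb (693 CPM), and the rest were inside the range of the others. The 7 macrophage and leukocyte markers summed to 302 CPM in it, to 149 to 207 CPM in the other Dp1Tyb libraries and to 267 to 372 CPM in WT. Lyz2 alone made 210.5 of the 302 CPM, and Ptprc, the pan-leukocyte marker, was at 8.15 CPM in it, 7.09 to 8.22 CPM in the other Dp1Tyb libraries and 13.8 to 15.0 CPM in WT. Of the endothelial markers 5 of 6 were in the table, without Tie1, and summed to 78.8 CPM against 31.7 to 56.5 CPM, of which Kdr made 72.2 CPM. Of 6 erythroid markers only Alas2 was in the table. Xist was at 1502 CPM in it and at 1534 CPM in WT replicate 2, with at most 3.46 CPM in the other 6, while Ddx3y of the Y chromosome was at 0.155 and 0.297 CPM in those 2 libraries and between 132 and 178 CPM elsewhere. The part of these features in the results below was not tested.

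All 10 genes were at their highest in Dp1Tyb replicate 1, with both scalings, as were 18.4% of the 16470 genes tested with relative and 21.7% with spike-in scaling. With relative scaling 7 of the 10 were there at least 1.5-fold over the highest of the other 7 libraries, a mark that 153 of 16470 genes (0.929%) reached in that library. With spike-in scaling 6 of the 10 reached it, and 197 of all genes (1.2%). None of the 10 stood apart in this way in any other library, WT replicate 1 included, where 322 genes did. Pkm, at 1.501-fold over the highest other library, was just inside the mark and Eno1, at 1.47-fold, just outside. In the other direction, 628 of all genes (3.81%) were at least 1.5-fold under the lowest other library in Dp1Tyb replicate 1 with relative scaling. With spike-in scaling 262 (1.59%) were. The 10 genes together took 1.02% of endogenous counts in Dp1Tyb replicate 1, 0.442% to 0.569% in the WT libraries and 0.532% to 0.602% in the other 3 Dp1Tyb libraries.

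**Figure D1:**
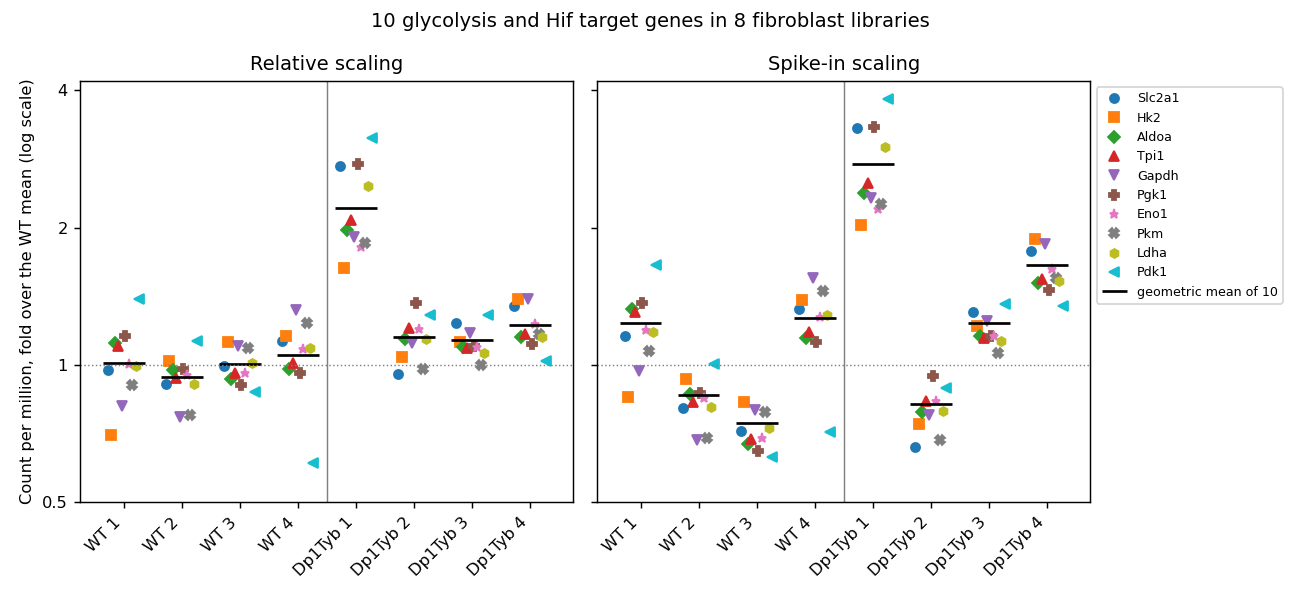
Level of each of the 10 genes in CPM, as fold over its WT mean on a log scale, in the 4 WT and 4 Dp1Tyb libraries, with relative scaling (left) and spike-in scaling (right); bars are the geometric mean of the 10. The mean lies at 2.21-fold in Dp1Tyb replicate 1 and between 0.940-fold and 1.22-fold in the other 7 libraries with relative scaling, and at 2.76-fold against 0.744-fold to 1.66-fold with spike-in scaling.

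Averaged over the 10 genes on the log2 scale, with a pseudocount of 0.5 counts, the WT libraries stood at 1.01, 0.940, 1.00 and 1.05 times the WT mean with relative scaling. The Dp1Tyb libraries stood at 2.21, 1.15, 1.14 and 1.22 times it. The 4 Dp1Tyb values were therefore all above the 4 WT values, with replicate 1 far from the rest and the other 3 close together. The mean difference between Dp1Tyb and WT was 0.45 on the log2 scale (SD over libraries 0.46 in Dp1Tyb and 0.07 in WT, n = 4 each), and 0.22 without Dp1Tyb replicate 1 (SD 0.06, n = 3). For scale, all 14 listed reference genes also had a fitted log2 fold change above 0 with relative scaling, with a median of 0.16, or 0.17 without that library, when the median over all 16470 genes was 0.00.

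With spike-in scaling the same averages were 1.23, 0.860, 0.744 and 1.27 times the WT mean in WT and 2.76, 0.821, 1.24 and 1.66 times it in Dp1Tyb. The genotypes overlapped on this scale, with Dp1Tyb replicate 2 below 3 of the 4 WT libraries and replicate 3 below WT replicate 4. The mean log2 difference was 0.55 (SD 0.38 in WT and 0.74 in Dp1Tyb, n = 4 each), and 0.25 without Dp1Tyb replicate 1. Endogenous RNA per spike-in, relative to the geometric mean of the 8, was 1.21 in Dp1Tyb replicate 1, against 0.690 to 1.31 in the other libraries.

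No gene of the 10 was called between the genotypes by edgeR's quasi-likelihood test at a Benjamini-Hochberg adjusted p under 0.05. The test called 2 of 16470 genes (0.0121%) on the spike-in scale and 4 (0.0243%) on the relative scale, all higher in Dp1Tyb. At an unadjusted p under 0.05, 4 of the 10 were past the mark with each scaling, as were 1.17% of all genes with spike-in and 4.25% with relative scaling, and without Dp1Tyb replicate 1 none of the 10 was past it with either scaling. DESeq2 called none of the 10 with either scaling, and limma-voom none with relative scaling, and with relative scaling they put 8 and 2 of the 10 past the unadjusted mark, while edgeR with upper-quartile factors put 1. Since the 10 were selected on this contrast, nothing is read from these counts. All 4 Dp1Tyb libraries were above all 4 WT libraries for 1 of the 10, Eno1, with relative scaling and for none with spike-in scaling; 272 of 16470 genes (1.65%) had this pattern with relative and 48 (0.291%) with spike-in scaling.

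Glucose enters fibroblasts mainly through Slc2a1 (chr4:119108711-119137983, + strand; all gene positions are GRCm38, GENCODE M21), the glucose transporter of the plasma membrane also known as Glut1. Slc2a1 was at 79.0, 73.5, 80.5 and 91.4 CPM in the WT libraries with relative scaling. It was at 221, 77.3, 100.1 and 109 CPM in Dp1Tyb. Replicate 1 was 2.03-fold over the highest other library, Dp1Tyb replicates 3 and 4 lay above all WT libraries, and replicate 2 lay among them. The fitted log2 fold change was 0.65 (SE 0.28), and 0.24 (SE 0.14) without replicate 1. In counts, the ratio of Slc2a1 to Slc2a3, a second glucose transporter, was 13.8 in replicate 1 and 5.33 to 8.23 in the other 7 libraries, and Slc2a3 itself was at 16.0 CPM there, inside its range elsewhere (11.1 to 18.8 CPM).

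Hk2 (chr6:82725025-82774454, - strand) encodes the inducible hexokinase, which traps glucose in the cell as glucose 6-phosphate. It was at 98.9, 144, 158 and 163 CPM in WT and at 229.9, 147, 158 and 197 CPM in Dp1Tyb with relative scaling. Of the 10 genes Hk2 stood least apart in Dp1Tyb replicate 1, at 1.17-fold over the highest other library (Dp1Tyb replicate 4), and WT replicate 1 was low. With spike-in scaling the distance was smaller still, 277 against 258 CPM. Hk1, the constitutive hexokinase, stood further apart than Hk2 with 326 CPM in that library and 101 to 158 CPM elsewhere, so the Hk2 to Hk1 count ratio was lowest there, at 0.704 against 0.752 to 1.43.

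Aldoa (chr7:126795234-126800751, - strand) is the aldolase that cuts fructose 1,6-bisphosphate, and Tpi1 (chr6:124810586-124814296, - strand) interconverts the resulting triose phosphates. Aldoa was at 639, 558, 532 and 559.9 CPM in WT and at 1129, 652, 627 and 658 CPM in Dp1Tyb. Tpi1 was at 325, 276, 283 and 298 CPM in WT and at 613, 356, 321 and 345 CPM in Dp1Tyb. In both, replicate 1 was 1.72-fold over the highest other library, 2 of the other 3 Dp1Tyb libraries were above every WT library, and replicate 3 was just below WT replicate 1. These 2 genes moved together most closely of the 45 pairs among the 10, with r = 0.99 over the 8 libraries and r = 0.94 over the 7 without Dp1Tyb replicate 1, both on log2 values that share each library's scaling.

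Gapdh (chr6:125161715-125166467, - strand) oxidises glyceraldehyde 3-phosphate, and Pgk1 (chrX:106187100-106203699, + strand) makes the first ATP of the pathway from its product. Gapdh was at 359, 339.8, 487 and 582 CPM in WT and at 842, 493, 519.6 and 615 CPM in Dp1Tyb. The WT libraries fell into a lower pair (replicates 1 and 2) and a higher pair, and only Dp1Tyb replicates 1 and 4 exceeded all of WT. The fitted log2 fold change of Gapdh was 0.48 (SE 0.22), and 0.30 (SE 0.19) without replicate 1.

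Pgk1 was at 368, 312, 288 and 306 CPM in WT and at 877, 436, 349.7 and 353 CPM in Dp1Tyb. It stood further above the rest in Dp1Tyb replicate 1 than Gapdh did, at 2.01-fold over the highest other library against 1.37-fold, and 2 of the 4 Dp1Tyb libraries were below WT replicate 1. Pgk1 is X-linked. WT replicate 2, the other library with high Xist, was at 312 CPM, among the other WT libraries. The part of sex in the level of Pgk1 was not tested. The fitted log2 fold change was 0.66 (SE 0.28), and 0.25 (SE 0.13) without replicate 1.

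Eno1 (chr4:150236721-150248879, + strand) is the enolase of most tissues, and Pkm (chr9:59656368-59679375, + strand) encodes the muscle-type pyruvate kinases that make pyruvate and ATP in the last step. Eno1 was at 737, 698, 705 and 795 CPM in WT and at 1330.4, 879, 801 and 902 CPM in Dp1Tyb, where the lowest Dp1Tyb library was just above the highest WT library. Pkm was at 1642, 1413, 1984 and 2246 CPM in WT and at 3370.1, 1787, 1821 and 2131 CPM in Dp1Tyb. Apart from replicate 1, the Dp1Tyb libraries lay inside the WT range for Pkm, whose fitted log2 fold change was 0.32 (SE 0.23) and 0.07 (SE 0.17) without that library.

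Ldha (chr7:46841475-46855627, + strand) encodes the lactate dehydrogenase subunit that favours lactate, and Pdk1 (chr2:71873224-71903858, + strand) the kinase that switches off pyruvate dehydrogenase and so keeps pyruvate out of the mitochondria. Ldha was at 636, 582, 647 and 699 CPM in WT and at 1584, 729, 681 and 739 CPM in Dp1Tyb. Without Dp1Tyb replicate 1 Ldha was among the steadier of the 10, with an SD of 0.12 on the log2 scale over 7 libraries, against 0.45 over all 8. Its partner subunit Ldhb was at 22.5 CPM in replicate 1 and 14.2 to 35.0 CPM elsewhere, so the Ldha to Ldhb count ratio was 70.3 there and 18.2 to 45.6 in the other 7 libraries.

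Pdk1 was at 43.0, 34.7, 26.9 and 18.7 CPM in WT and at 97.0, 39.6, 39.6 and 31.3 CPM in Dp1Tyb. It was the least abundant of the 10 and varied most among WT libraries, with a log2 SD of 0.51, and the 3 Dp1Tyb libraries other than replicate 1 all lay inside the WT range. Replicate 1 was 2.26-fold over the highest other library, the largest such distance among the 10. The fitted log2 fold change was 0.75 (SE 0.37), and 0.26 (SE 0.24) without that library. Pdk3, a related kinase, was at 43.2 CPM in replicate 1 and at 36.4 to 43.5 CPM elsewhere, and the Pdk1 to Pdk3 count ratio was 2.25 against 0.5003 to 1.18.

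**Figure D2:**
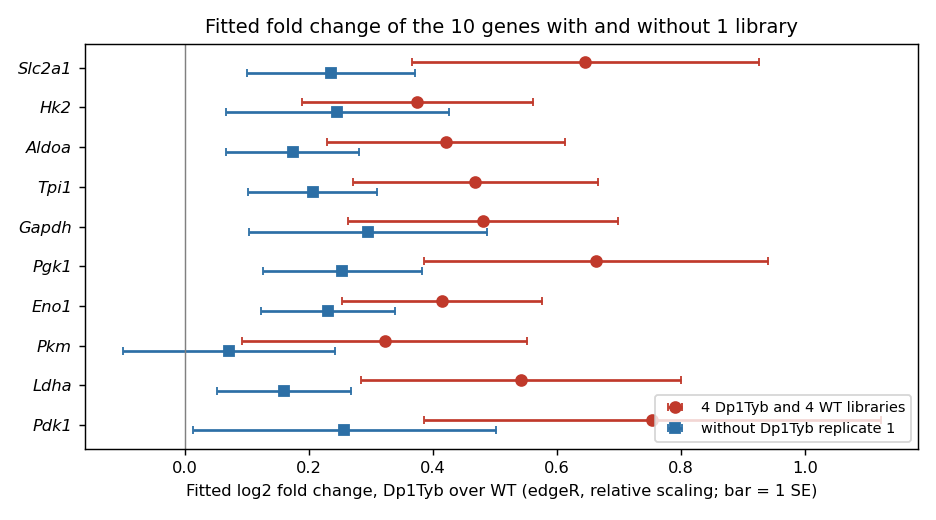
Fitted log2 fold change (edgeR, relative scaling) of Dp1Tyb over WT for each of the 10 genes, with all 8 libraries (circles) and without Dp1Tyb replicate 1 (squares); bars are 1 SE. The values run from 0.32 (Pkm) to 0.75 (Pdk1) with all libraries and from 0.07 (Pkm) to 0.30 (Gapdh) without that library.

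The 10 genes differ in what their counts can capture, since reads aligning to more than 1 place were discarded before counting. Of the 100-base windows of its principal transcript, 78.0% for Gapdh also occur letter for letter in a transcript of another annotated gene, and 86 such genes share at least 1 window with it. The share was 67.0% for Pgk1 (3 other genes), 59.0% for Eno1 (4 other genes) and 9.82% for Pkm, at most 1.32% for Ldha, Tpi1 and Slc2a1, and 0 for Aldoa, Hk2 and Pdk1. The counts of Gapdh, Pgk1 and Eno1 are uncertain to that extent and, since discarding reads lowers a count, may be too low. Of their listed copies with counts, Pgk1-rs7 was at 6.34 CPM in Dp1Tyb replicate 1 against 1.78 to 3.30 CPM elsewhere, Eno1b at 1.12 against 0.292 to 0.920 CPM, and Gapdhs, the sperm form, at 1.55 against 0.287 to 2.34 CPM. The distance of replicate 1 over the highest other library was 2.26-fold for Pdk1, 1.72-fold for Aldoa and 1.17-fold for Hk2, which share no window, and 2.01-fold for Pgk1, 1.47-fold for Eno1 and 1.37-fold for Gapdh, which share most.

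Levels between genes were compared per kilobase of all annotated exons, as RPKM with relative scaling. In WT, Pkm was highest at 364 ± 73.5 RPKM (SD, n = 4), followed by Aldoa at 197 ± 15.9, Ldha at 194 ± 14.48, Pgk1 at 142 ± 15.4, Eno1 at 136 ± 8.20, Tpi1 at 107 ± 7.88, Gapdh at 107 ± 27.6, Hk2 at 23.6 ± 4.91, Slc2a1 at 23.1 ± 2.14 and Pdk1 at 3.96 ± 1.34 RPKM. The ranges of the WT libraries overlapped within the pairs Aldoa and Ldha, Pgk1 and Eno1, Tpi1 and Gapdh, and Hk2 and Slc2a1, and not between the other neighbours in the order. Per kilobase of the principal transcript, Gapdh moved from place 7 to place 5 and Pgk1 from place 4 to place 7, while the first 3 and the last 3 places were the same. Since multi-aligning reads were discarded, the levels of Gapdh, Pgk1 and Eno1 may be understated, and their places in both orders are uncertain. In Dp1Tyb replicate 1 Slc2a1 (63.0 RPKM) was well above Hk2 (38.5 RPKM), and Ldha (479 RPKM) above Aldoa (388 RPKM).

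The promoters of the 4 genes that stood furthest apart in Dp1Tyb replicate 1 are shown, since these genes were high in the same library and the core letters of the hypoxia response element, to which Hif binds, can be looked for in them. Each sequence is the 250 bases before a start site, from RefSeq (GRCm38.p6), on the strand of the gene and 5′ to 3′; all 10 genes matched an entry, and where a gene has several start sites the nearest to that of its principal transcript was taken. Capitals mark ACGTG and GCGTG on either strand, so CACGT and CACGC as well. Slc2a1 is chr4:119108495-119108744, Pgk1 chrX:106186850-106187099, Ldha chr7:46846832-46847081 and Pdk1 chr2:71872974-71873223, all on the + strand.
Slc2a1: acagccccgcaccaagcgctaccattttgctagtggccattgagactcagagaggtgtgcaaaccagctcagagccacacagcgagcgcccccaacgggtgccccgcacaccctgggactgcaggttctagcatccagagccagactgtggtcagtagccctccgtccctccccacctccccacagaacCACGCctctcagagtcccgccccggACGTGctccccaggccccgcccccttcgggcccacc
Pgk1: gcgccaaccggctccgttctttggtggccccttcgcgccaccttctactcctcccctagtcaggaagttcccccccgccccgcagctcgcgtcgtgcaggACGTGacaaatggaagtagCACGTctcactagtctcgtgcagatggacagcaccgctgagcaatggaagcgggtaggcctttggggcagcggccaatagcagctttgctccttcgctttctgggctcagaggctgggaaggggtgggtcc
Ldha: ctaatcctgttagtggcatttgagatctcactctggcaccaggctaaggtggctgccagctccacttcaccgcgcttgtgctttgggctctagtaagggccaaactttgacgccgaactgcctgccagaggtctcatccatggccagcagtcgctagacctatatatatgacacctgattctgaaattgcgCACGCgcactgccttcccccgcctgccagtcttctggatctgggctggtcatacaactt
Pdk1: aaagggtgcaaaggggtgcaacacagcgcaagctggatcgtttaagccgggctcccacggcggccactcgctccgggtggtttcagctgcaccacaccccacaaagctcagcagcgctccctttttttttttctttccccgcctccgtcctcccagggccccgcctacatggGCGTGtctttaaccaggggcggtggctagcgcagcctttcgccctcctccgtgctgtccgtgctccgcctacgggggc

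Slc2a1 and Pgk1 held 2 matches each in this window and Ldha and Pdk1 held 1 each. Over the 10 genes, 8 held at least 1 match and 4 at least 2 (Gapdh, Pgk1, Hk2 and Slc2a1), while Tpi1 and Pkm held none in the window taken. The start site taken lay 208 bases from that of the principal transcript for Pkm, 138 for Tpi1 and 244 for Eno1. For the other genes it lay at most 49 bases away. Of all 32851 such windows, 38.6% held at least 1 match and 16.7% at least 2. Counting every window of a gene, 9 of the 10 held a match, as did 41.5% of all genes. A match is a description of the letters, and binding of Hif to these windows was not tested.

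The other genes of the pathway were read from 4 lists: other glycolysis enzymes, glycolysis regulators and transport, the Hif core, and other Hif targets. The lists cover the pathway of the 10 genes and were chosen with earlier results of these data known. Their shares and p-values below are therefore descriptions of these libraries. Of 75 listed genes 71 were in the table and 68 were tested, and none was called by edgeR with either scaling, by DESeq2 with either scaling, or by limma-voom with relative scaling. At an unadjusted p under 0.05, 10 of the 68 were higher and 1 lower in Dp1Tyb with relative scaling, and 12 were higher with spike-in scaling, 16.2% and 17.6% of the 68. Over all genes tested the shares at that mark were 4.25% and 1.17%. Without Dp1Tyb replicate 1 the lists had 4 higher and 2 lower with relative scaling (8.82%, against 5.53% over all genes) and 1 lower with spike-in scaling (1.47%, against 1.51%). With spike-in scaling the calls depended on which library was left out: without Dp1Tyb replicate 2, Pfkfb3, Ak4, Bnip3 and Fam162a were called higher (edgeR log2 fold changes 1.68, 1.46, 1.42 and 1.26, adjusted p = 6.2e-05, 0.0038, 0.0023 and 0.022), and Pfkfb3 was also called without WT replicate 1 (adjusted p = 0.045) or Dp1Tyb replicate 4 (adjusted p = 0.039). Each of those fits kept Dp1Tyb replicate 1. Over all genes they called 8 without Dp1Tyb replicate 2, 6 without WT replicate 1 and 6 without Dp1Tyb replicate 4. All 4 Dp1Tyb libraries were above all 4 WT libraries for 4 of the 68 (5.88%) with relative scaling, against 1.65% of all genes. With spike-in scaling this held for 0 of the 68, against 0.291% of all genes.

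In Dp1Tyb replicate 1, 18 of the 68 genes (26.5%) were at least 1.5-fold over the highest other library with relative scaling, and 17 with spike-in scaling. Together with the 10 genes above, these lists supplied 25 of the 153 genes that reached the mark, and 23 of the 84 whose counts averaged 100 or more. The median of the 68 genes was 0.32 above the median of the other 7 libraries on the log2 scale, that of the 10 genes 0.91, and that of all genes 0.00.

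**Figure D3:**
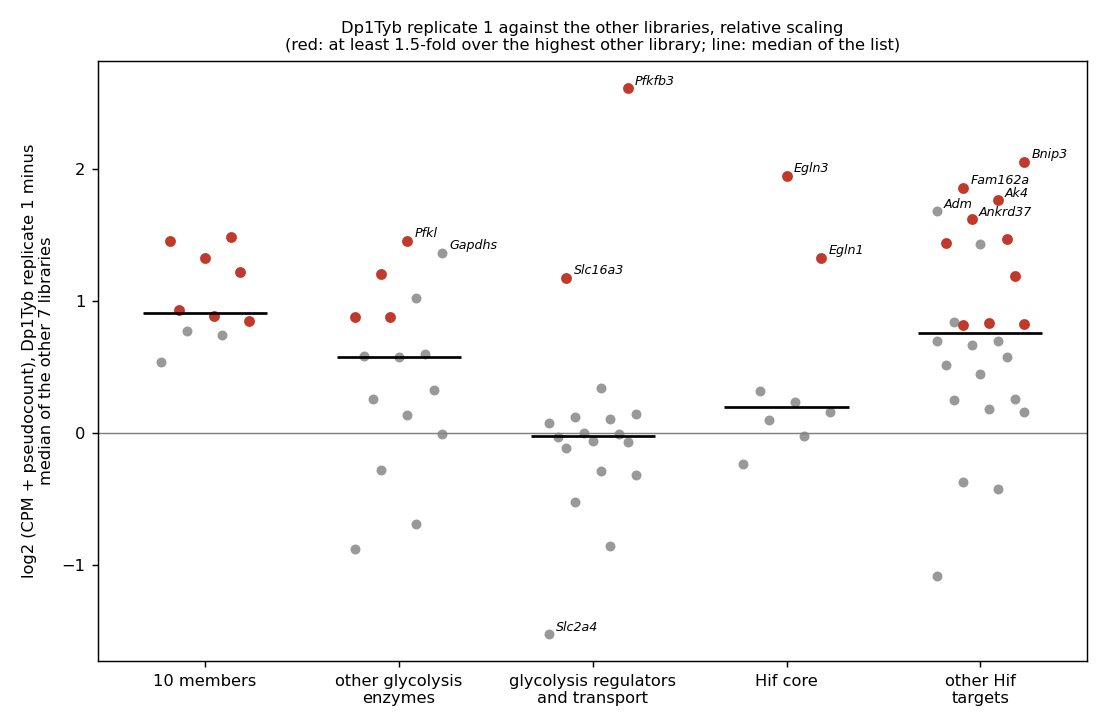
Log2 level in Dp1Tyb replicate 1 minus the median of the other 7 libraries (relative scaling) for the 10 genes and the tested genes of 4 pathway lists; red points are at least 1.5-fold over the highest other library and bars are list medians. Red points number 7 of 10 for the members, 4 of 16, 2 of 18, 2 of 8 and 10 of 26 for the lists, and Pfkfb3 is highest at 6.12-fold over the median of the other libraries.

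Of the other glycolysis enzymes, 4 of 16 stood apart. Pfkl, the liver-type phosphofructokinase that is also used widely, was at 213 CPM in replicate 1 and 59.8 to 102 CPM elsewhere, Hk1 is given above, Pgam1 (phosphoglycerate mutase) was at 722 against 346 to 428 CPM, and Gpi1 (glucose 6-phosphate isomerase) at 457 against 207 to 282 CPM. Pfkp, the platelet-type phosphofructokinase, was also highest there but short of the mark, at 83.7 against 44.7 to 61.9 CPM. The sister isozymes Pfkm (24.5 against 19.1 to 27.3 CPM) and Eno2 (37.7 against 24.0 to 53.4 CPM) were inside the range of the other libraries. Gpi1, Pgam1 and Pfkl had the smallest unadjusted p of this list between the genotypes (edgeR with relative scaling, log2 fold changes 0.44, 0.39 and 0.66, each with an adjusted p = 0.999).

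Of the 18 regulators and transporters, Pfkfb3 and Slc16a3 stood apart. Pfkfb3 makes fructose 2,6-bisphosphate, the activator of phosphofructokinase, and its 36.8, 23.5, 26.8 and 24.1 CPM in WT stood beside 164, 23.7, 28.3 and 28.0 CPM in Dp1Tyb. It was 4.45-fold over the highest other library, the largest such distance of all 16470 genes, and outside replicate 1 the genotypes overlapped fully. Slc16a3, a lactate exporter, was at 75.5 CPM in replicate 1 against 16.0 to 39.0 CPM, whereas Slc16a1, its relative, was at 61.6 against 58.1 to 91.5 CPM. Pfkfb1 and Pfkfb4, relatives of Pfkfb3, were lowest in replicate 1, at 2.20 against 3.40 to 5.47 CPM and at 6.14 against 6.18 to 10.5 CPM. Between the genotypes Slc2a3 (log2 fold change 0.42), Pdk4 (-0.57) and Slc16a3 (0.79) had the smallest unadjusted p of the list, each with an edgeR adjusted p = 0.999.

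Of the 8 Hif core genes tested, 4 were highest in replicate 1 with relative scaling, against 18.4% of all genes, and 1 was lowest. The rest were inside the range of the other libraries. Hif1a was at 468 CPM in replicate 1, 445 to 467 CPM in the other Dp1Tyb libraries and 373 to 438 CPM in WT. With relative scaling all its Dp1Tyb values were therefore above all its WT values, and with spike-in scaling they overlapped. Epas1 was at 15.6 CPM in replicate 1 against 11.8 to 18.1 CPM elsewhere, and Arnt at 108 against 113 to 147 CPM, the lowest of the 8 libraries. Vhl was at 14.2 against 10.1 to 18.2 CPM, Egln2 at 37.9 against 33.8 to 42.4 CPM, and Hif1an, the asparaginyl hydroxylase of Hif, at 62.4 against 44.7 to 55.6 CPM. Hif3a had too few counts to be tested (0 to 44 a library). Egln1 and Egln3, hydroxylases that are themselves Hif targets, stood apart at 183 against 69.1 to 80.7 CPM and at 19.4 against 4.01 to 7.39 CPM. None of the 8 tested was called between the genotypes by edgeR, DESeq2 or, with relative scaling, limma-voom.

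Of 26 other Hif targets, 20 were highest in replicate 1 with relative scaling, against 18.4% of all genes, and 10 reached the mark of 1.5-fold, against 0.929%. Bnip3, which promotes removal of mitochondria, was at 202 against 38.1 to 61.7 CPM, Ak4, a mitochondrial adenylate kinase, at 84.2 against 17.02 to 27.3 CPM, and Fam162a at 193 against 42.4 to 68.2 CPM. Plod2, a collagen lysyl hydroxylase, was at 499.7 against 151 to 229.8 CPM and P4ha1, a collagen prolyl hydroxylase, at 484 against 219 to 304 CPM. Other known targets did not reach the mark, among them Vegfa, the angiogenic factor, at 180.3 against 100.1 to 209 CPM, and Ddit4 at 45.2 against 32.4 to 44.3 CPM. Ndrg1 did not either, at 57.5 CPM in replicate 1, 54.3 to 56.5 CPM in the other Dp1Tyb libraries and 33.3 to 50.9 CPM in WT. For 3 of the 26 (11.5%, Ndrg1 among them) all Dp1Tyb libraries were above all WT libraries with relative scaling, against 1.65% of all genes. With spike-in scaling this held for 0. Adm was as high in WT replicate 1 (35.4 CPM) as in Dp1Tyb replicate 1 (35.7 CPM). Ero1l, Mif and Ak4 had the smallest unadjusted p of this list between the genotypes (log2 fold changes 0.57, 0.46 and 1.02, each with an edgeR adjusted p = 0.999).

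**Figure D4:**
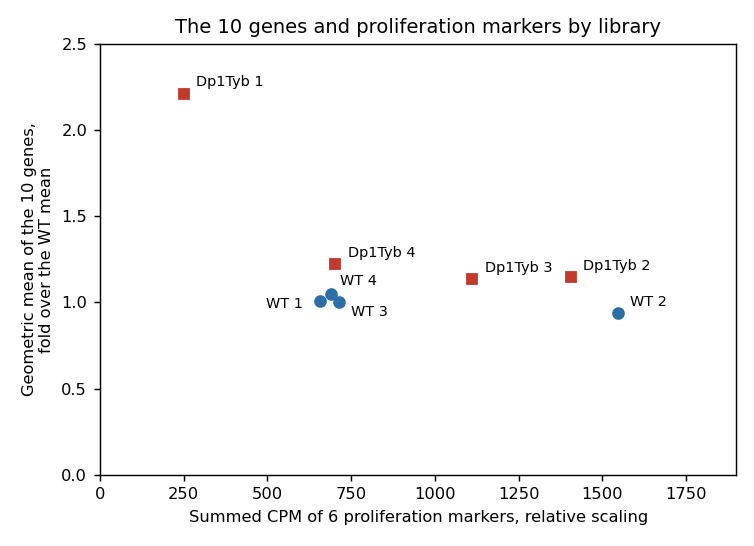
Geometric mean of the 10 genes as fold over the WT mean against the summed CPM of 6 proliferation markers (Mki67, Top2a, Cdk1, Ccnb1, Pcna and Mcm2) in each library, relative scaling, with WT as circles and Dp1Tyb as squares. Dp1Tyb replicate 1 is at 250.4 CPM and 2.21-fold, and the other 7 libraries span 658 to 1545 CPM at 0.940-fold to 1.22-fold.

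The proliferation markers ran opposite to the mean of the 10 genes, as did some genes outside that list. After removing each genotype's mean, the r of each of the 6 markers with the mean of the 10 genes lay between -0.92 (Mki67) and -0.84 (Pcna) over the 8 libraries, and between -0.91 (Mki67) and -0.75 (Mcm2) over the 7 without Dp1Tyb replicate 1. Over these 7, Hk2 (-0.18), Pgk1 (-0.35) and Pdk1 (-0.85) themselves had r below 0 with that mean, so it does not stand for each gene. Of the 11001 genes compared in this way over the 8 libraries, 94.7% had a higher r than Pcna and 99.1% a higher r than Mki67. Genes of the other marker lists lay on both sides, with Thy1 at -0.92, Des at -0.90 and Vim at 0.77. Without Dp1Tyb replicate 1 the mean of the 10 genes varied little, with a log2 SD of 0.07 in WT and 0.06 in Dp1Tyb. The r values over the 7 libraries therefore rest on small differences. All these r values are descriptions over log2 values that share each library's scaling. The part of proliferation in the levels of the 10 genes was not tested.

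Without Dp1Tyb replicate 1 the 10 genes no longer all varied in the same direction. Over all 8 libraries the 45 pairwise r values ran from 0.29 to 0.99 and all were positive, whereas over the 7 remaining libraries they ran from -0.68 (Pkm with Pdk1) to 0.94 (Aldoa with Tpi1) and 9 were negative. Gapdh went with Pkm (r = 0.92) and Ldha (r = 0.87) over these 7, Pgk1 went with Tpi1 (r = 0.89) and Aldoa (r = 0.87), and Gapdh with Pgk1 had r = 0.01. The values are descriptions over libraries that share their scaling, and no test was made on them.

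The genes most like the 10 were sought among the 11001 genes whose counts averaged 100 or more, by the correlation of their log2 level with the mean of the 10 after removing each genotype's mean. The 10 non-member genes with the highest r included Egln1, Gpi1, Zfp955a, Sfmbt2, Bbx, Dnajc5, Eif1b, Tmem131l and Katnbl1, with r from 0.97 to 0.99 over 8 libraries. Of all genes 174 (1.58%) had r over 0.9. When Dp1Tyb replicate 1 was left out, r was 0.49 for Egln1 and 0.93 for Gpi1, and none of the 10 was still among the 10 most like. Of the 10 members Ldha was nearest to their mean (r = 0.99, and 0.87 without Dp1Tyb replicate 1) and Hk2 furthest from it (r = 0.49). Without that library r was below 0 for Hk2 (-0.18), Pgk1 (-0.35) and Pdk1 (-0.85), so Pdk1 was then furthest.

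Used as a reference gene, Gapdh would have changed the picture of the whole table. Gapdh and Pgk1 were selected on these counts, so their spread and the shifts they bring restate their own differences and are descriptions. The log2 level of Gapdh had an SD of 0.42 over the 8 libraries with relative scaling, more than that of 87.0% of the 11001 genes, and 0.33 without Dp1Tyb replicate 1, more than 81.1%. Of 14 usual reference genes Sdha (SD 0.06) had the smallest spread and Tubb5 (SD 0.38) the largest with this scaling, and the median gene had 0.21. Without Dp1Tyb replicate 1 the SD of B2m (0.353) was the largest, just above that of Tubb5 (0.349), and with spike-in scaling of all 8 libraries Ppia (0.29) had the smallest and B2m (0.58) the largest. The 112 tested genes inside the duplicated region had a median of 1.43-fold in Dp1Tyb over WT with relative scaling. Dividing by Gapdh in each library brought this to 1.02-fold, or 1.17-fold without Dp1Tyb replicate 1, and moved the median of all tested genes by -0.48 on the log2 scale. Dividing by Pgk1 gave 0.971-fold, or 1.23-fold without that library, and dividing by each of the 14 reference genes gave from 1.03-fold (B2m; 1.11-fold without Dp1Tyb replicate 1) to 1.42-fold (Tbp).

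**Figure D5:**
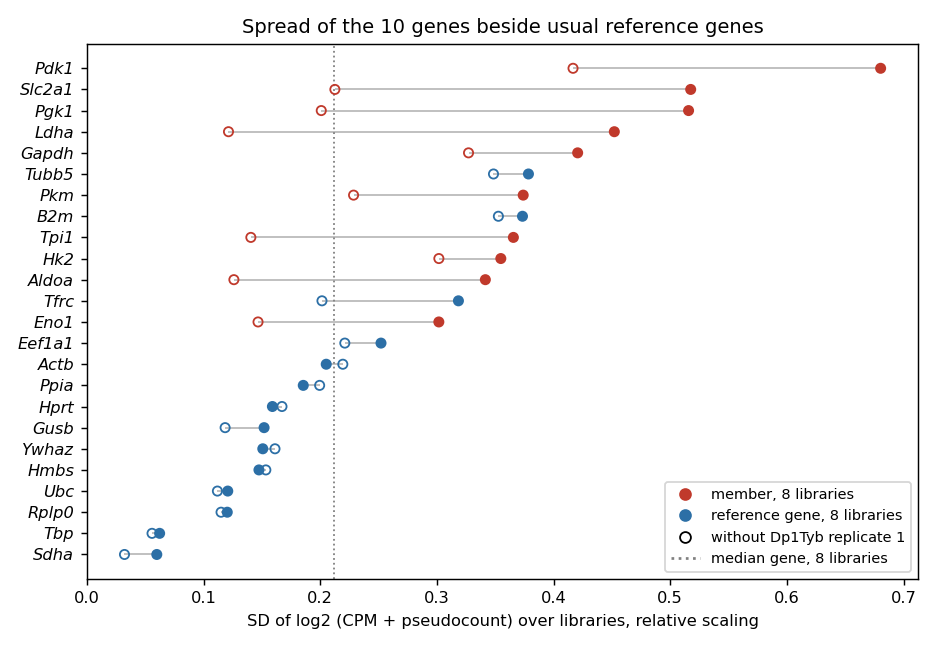
SD over libraries of the log2 level (relative scaling) of the 10 genes (red) and 14 reference genes (blue), over 8 libraries (filled) and without Dp1Tyb replicate 1 (open); the dotted line is the median gene (0.21). Sdha and Tbp lie at 0.06, Gapdh at 0.42 and Pdk1 at 0.68, and Ldha moves from 0.45 to 0.12 when the library is left out.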

How the data were processed

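Per the labels and the study's methods, the authors trimmed adapters (Trim Galore), aligned reads to GRCm38 with TopHat2 2.0.12, discarded multi-aligning reads and counted reads per gene with HTSeq. The annotation release and strand setting are not given in the sources used here. The deposited raw counts per gene and spike-in (19493 endogenous genes, 63 spike-ins) were used; the authors' normalised table and their own comparison (fold changes and p-values) were not used.

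Counts were tested with edgeR 4.0.16 (filterByExpr, quasi-likelihood test, Benjamini-Hochberg) under R 4.3.3, with spike-in or relative (TMM) scaling. Symbols, positions and lengths came from GENCODE M21. The steps were tested on simulated data. DESeq2 1.42.0, limma-voom 3.58.1, other scalings, filters and pseudocounts, each library left out and a replicate block were tried as alternatives. The 10 members and all gene lists were chosen with earlier results of these data known. Besides the members, the text names all Hif core genes and, of each other pathway list, any called gene and the 3 with the smallest unadjusted p, copies with counts, the reference genes with the smallest and largest spread, and the 10 most like genes (1 of which is not reported here); Pfkm, Pfkp, Eno2, Ldhb, Hk1, Pdk3, Pfkfb1, Pfkfb3, Pfkfb4, Slc16a1, Bnip3, Fam162a, Plod2, P4ha1, Vegfa, Ndrg1, Ddit4, Adm, B2m and Tbp were chosen after their values were seen. The labels do not say that each library is a separate embryo, so p-values measure the spread between these libraries.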

Additional observations from a re-analysis of the deposited data

Results flagged for a closer look

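The gap of the outermost library to the next, divided by the group's range, was taken in 180 groups of 4 libraries on the log2 scale, relative scaling. Of these, 22 were past Dixon's critical value for 4 libraries, which chance passes in about 1 in 20 groups of unselected values. The members were selected on these counts and the lists were chosen with earlier results known, so the values are descriptions and nothing is read from their number. In 18 of the 22 the outlying library was Dp1Tyb replicate 1. Among the members this library was the high outlier of the Dp1Tyb group for Aldoa (gap over range 0.917), Ldha (0.904) and Tpi1 (0.838), and for the mean of the 10 genes (0.891).

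Among the pathway genes Dp1Tyb replicate 1 was the high outlier for Ak4 (0.983), Bnip3 (0.979), Bnip3l (0.938), Pfkfb3 (0.909), Fam162a (0.899), Pfkl (0.895), Slc16a3 (0.885), Pgam1 (0.860), Car9 (0.854), Plod2 (0.845), Egln1 (0.840) and Mif (0.836). It was the low outlier for Pfkfb1 (0.881) and Slc2a4 (0.858). In the WT group, replicate 1 was high for Adm (0.925), Gapdhs (0.922) and Bnip3 (0.897), and replicate 2 was low for Ankrd37 (0.956).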

How the results depend on the processing

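The fitted log2 fold change of each of the 10 genes was above 0 in all 14 alternatives with each scaling. The 10 were selected on this contrast and the alternatives refit the same counts, so nothing is read from the sign. With 1 library left out, the mean log2 difference ran from 0.25 to 0.83 with spike-in and from 0.22 to 0.54 with relative scaling. In both it was lowest without Dp1Tyb replicate 1. The number of genes called over the whole table, 2 with spike-in and 4 with relative scaling, was 0 with each when 10 counts were required in every library, and 2 with relative scaling and no filter. DESeq2 with relative scaling called 54. Leaving out each library in turn gave 2 to 8 calls with spike-in and 1 in every case with relative scaling, and 0 to 4 calls among the pathway genes with spike-in scaling (4 without Dp1Tyb replicate 2). Same-numbered libraries correlated at 0.37, 0.52, 0.03 and 0.33. WT replicates 1, 2 and 4 correlated best with the Dp1Tyb library of their own number, and WT replicate 3 with Dp1Tyb replicate 4. As replicate 3 did not match, the numbers were not taken to pair the samples, and the block is given as an alternative. With the replicate number as a block 9 genes were called with spike-in and 7 with relative scaling, none of them among the members or the pathway genes. At an unadjusted p under 0.05 (edgeR) the block put 7 members past the mark with relative and 6 with spike-in scaling. With relative scaling it put 19 pathway genes higher and 4 lower, and 696 and 903 of all genes. Of the 10 genes most like the members, 3 were shared when genotype means were kept and 0 without Dp1Tyb replicate 1, and the pathway genes at an unadjusted p under 0.05 went from 11 to 6 with relative and from 12 to 1 with spike-in scaling without that library; the last 2 alternatives and the spike-in form of the distance to the highest other library were chosen after seeing the data. The causes were not tested. With 4 libraries a genotype, a departure in 1 library sets most of the spread in its group.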

Other observations

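Among the 153 genes that were at least 1.5-fold over the highest other library in Dp1Tyb replicate 1 were genes on none of the lists. Those named here were picked after their values were seen, and no group of genes was tested. Pgm1, which links glucose 1-phosphate to glycolysis, was at 124 CPM there and 36.4 to 57.7 CPM elsewhere. Gys1, the glycogen synthase of most tissues, was at 139.5 CPM against 53.1 to 70.7 CPM, and Gbe1, the glycogen branching enzyme, at 52.8 against 16.3 to 26.2 CPM. Txnip, a glucose-responsive gene that limits glucose uptake, was at 145 against 36.1 to 74.0 CPM.

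Krt19, a keratin of epithelia, was at 44.7 against 9.72 to 14.3 CPM, Gata3, a transcription factor, at 44.3 against 5.68 to 15.5 CPM, and Slc5a3, an inositol transporter that lies in the duplicated region and so has the extra copy in all Dp1Tyb libraries, at 1218 against 197 to 524 CPM.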
